A study of Arabidopsis thaliana with 11 samples.

Results

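HY5, its homolog HYH and the G-box binding factors GBF1, GBF2, GBF3, bZIP16 and bZIP68 are 7 basic leucine zipper (bZIP) genes of Arabidopsis thaliana, and here they are described as targets of HY5 itself. They were taken by locus from the deposited peak and gene tables, and all 7 were found among the 25262 genes listed in at least 1 library. Binding was measured by chromatin immunoprecipitation of whole seedlings of the Columbia ecotype with a Flag antibody, followed by sequencing (ChIP-seq). The 8 immunoprecipitated libraries carry HY5 with the FLASH2 tag under the viral 35S promoter, a strong promoter active in most tissues. HY5-VP16 carries an added activation domain (3 libraries), HY5-SRDX an added repression domain (2 libraries), and HY5ox is HY5 without modification (3 libraries). The 3 controls, precipitated with the same antibody, are 2 samples of Columbia (Col-0) and 1 named hy5. The seedlings of all groups, kept at 21 °C, were dark-grown for 3 days before 2.5 h under white light imitated by blue, red and far-red lamps at 100 µmol photons per square metre each second. The labels do not state whether the transgenic seedlings also carried a mutation of the native HY5 gene, or how many transgenic lines were used.

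Proteins of the bZIP class bind DNA as dimers at elements with an ACGT core, of which the G-box is the best known in plants. HY5 accumulates in light, when the COP1 and SPA proteins no longer send it to degradation, and it promotes greening and restrains stem elongation. HYH overlaps with it in function and can pair with it, and the GBF and bZIP16 and bZIP68 proteins form a neighbouring group that recognises the G-box. HY5 is known to bind its own promoter, and the design allows this auto-binding to be set beside binding at its relatives.

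Libraries held 11.5 to 56.03 M tags and between 2958 peaks (HY5-VP16 replicate 3) and 20509 peaks (HY5-SRDX replicate 1). HY5-VP16 replicate 3 was the deepest and had the lowest share of tags in peaks, 1.83%, against 5.94% to 10.1% in the others. Samples form 3 sets with a control each. Set 1 holds HY5-VP16 replicates 1 and 2, both HY5-SRDX libraries and HY5ox replicate 1, set 3 holds HY5-VP16 replicate 3 and HY5ox replicate 3, and set 2 holds HY5ox replicate 2, whose control is the hy5 sample. Separate plant batches for the libraries of a construct are not named in the labels, so the p-values describe the spread among libraries, which may be technical, and libraries of a set share their control. Because the caller gave each library its own depth and peak width, peaks were compared by their percentile rank within a library, which is 100 times the rank by the caller's score over the number of peaks. A percentile near 0% is a strong peak. Percentiles from lists of different lengths show no change in binding by themselves, so the comparisons between constructs are descriptions of rank, and their values on the rank itself, not divided by the number of peaks, were added after the data were seen.

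The genes fell on a wide scale of binding. HY5, GBF2 and GBF3 were listed as bound in all 8 libraries, 3 of 7 genes, where 6.58% of 27444 annotated protein-coding genes were. The same 3 had a promoter peak in all 8, where 4.91% of genes did. HYH and GBF1 were listed in 7 libraries, bZIP68 in 4 and bZIP16 in 2. HYH was missing from HY5-SRDX replicate 1 and GBF1 from HY5-VP16 replicate 3. HY5ox replicate 1 and HY5-VP16 replicate 2 were the libraries that listed all 7.

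By construct, all HY5-VP16 libraries listed 4 of the 7 genes (10.7% of protein-coding genes), all HY5-SRDX libraries 4 (26.4%) and all HY5ox libraries 5 (23.5%). In single libraries, 5 members were listed in HY5-VP16 replicate 1 (34.9% of protein-coding genes), 7 in replicate 2 (44.6%) and 4 in replicate 3 (12.4%). HY5-SRDX replicates 1 and 2 listed 5 each (52.5% and 40.4%). HY5ox replicates listed 7, 5 and 6 (46.4%, 28.9% and 41%). Listing in a single library was thus common among all genes, most of all in HY5-SRDX replicate 1.

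**Figure D1:**
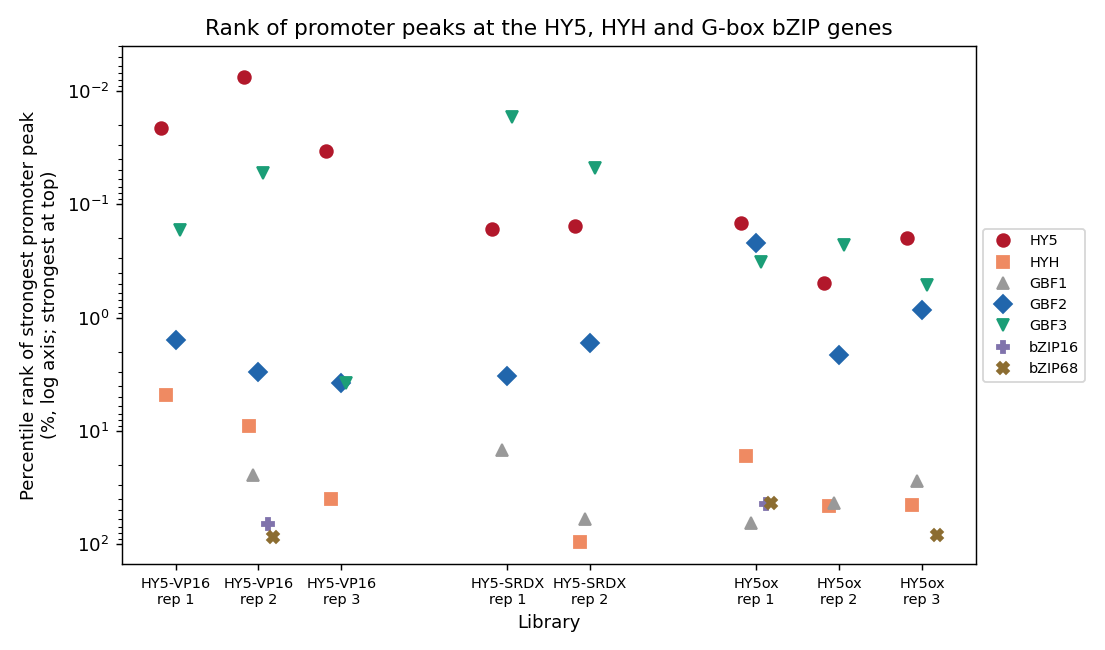
Percentile rank of the strongest promoter peak of each of the 7 genes (vertical log axis, strongest at the top) in each library (horizontal axis); a missing symbol means no promoter peak. HY5 lies between 0.00748% and 0.497% in all 8 libraries, while HYH lies between 4.77% and 95.6%.

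HY5 carried a peak over its own start site in every library (AT5G11260, minus strand, TAIR10 chromosome 5, start site at 3594992). These peaks together spanned 3594892 to 3595208. Their centres lay at -69, -24 and -65 bp from the start site in HY5-VP16 replicates 1 to 3, at -51 and -80 bp in HY5-SRDX replicates 1 and 2, and at -38, -41 and -66 bp in HY5ox replicates 1 to 3. The mean position was -54.3 ± 18.9 bp (SD, n = 8), and all 28 pairs of libraries overlapped there, also when 50% of the narrower peak had to be shared. A negative distance is upstream.

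The HY5 promoter peak held 323.1, 213.4 and 287.5 tags per 10 M in HY5-VP16 replicates 1 to 3, 78.8 and 193.9 in HY5-SRDX replicates 1 and 2, and 286.9, 238.1 and 399.8 in HY5ox replicates 1 to 3. Relative to the other peaks of its library it stood highest in HY5-VP16, at percentile 0.0210%, 0.00748% and 0.0338%. It ranked 2 of 9514, 1 of 13375 and 1 of 2958 peaks there. The percentiles of replicates 2 and 3 are thus the lowest their lists allow and differ by list length alone. The values were 0.163% and 0.154% for HY5-SRDX, and 0.145%, 0.497% and 0.197% for HY5ox. The 3 HY5-VP16 values were all below those of the other constructs, with no overlap. The HY5-VP16 tag counts themselves overlapped those of HY5ox and lay above those of HY5-SRDX.

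On the log2 scale the mean percentile of the HY5 promoter peak was -5.84 ± 1.11 in HY5-VP16 and -2.05 ± 0.93 in HY5ox (SD, n = 3 each), a difference of -3.79. The exact permutation p was 0.1, the smallest possible with 3 libraries against 3, and 0.367 after Benjamini-Hochberg adjustment over 11 tests of members and construct pairs. The difference had the same sign within set 1 (-3.53) and within set 3 (-2.54), and it was -4.23 on the rank itself. It shrank to -0.64 when peaks were ranked by fold over control and was -2.57 by fold over the local region. Against HY5-SRDX, whose mean was -2.66 ± 0.06 (n = 2), HY5-VP16 differed by -3.18 (exact permutation p = 0.1, adjusted 0.367), and within set 1 by -3.66. HY5-SRDX and HY5ox differed by -0.61, less than the spread between HY5ox libraries (exact permutation p = 0.7), and by 0.11 on the rank itself.

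In 6 libraries a further HY5 peak lay inside the gene, in the region 3593939 to 3594502. These peaks are not 1 shared interval. Those of HY5-SRDX replicates 1 and 2 do not touch, and that of HY5-VP16 replicate 3 touches neither replicate 1 nor 2. The intragenic peak of a library had 167.6, 132.3 and 97.6 tags per 10 M in HY5-VP16 replicates 1 to 3. It had 71.9 and 141.4 in HY5-SRDX replicates 1 and 2, and 127.8 in HY5ox replicate 1. That is 51.9%, 62.0% and 33.9% of the promoter peak in HY5-VP16, 91.2% and 72.9% in HY5-SRDX, and 44.5% in HY5ox replicate 1, and HY5ox replicates 2 and 3 had no such peak. These percentages were highest in the HY5-SRDX libraries, but they compare heights of separate intervals. The centres of the intragenic peaks ran from 585 bp to 925 bp downstream of the start site. In HY5-VP16 replicate 3 the authors also assigned the intragenic peak to the neighbouring gene AT5G11250. The transgenes carry an added copy of HY5 coding sequence that the controls lack. Within coding sequence, tags from the transgene and from the native locus cannot be told apart. Whether the intragenic peaks lie in coding sequence was not examined.

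HYH (AT3G17609, chromosome 3, plus strand, most upstream of 3 annotated start sites at 6023867), the closest homolog of HY5, carried a single promoter peak in 7 libraries. The peaks lay at -86.1 ± 22.7 bp (SD, n = 7) and overlapped in all 21 pairs, so in both homologs the bound region covers or adjoins the start site. The region was also assigned to RBL14 (AT3G17611), a rhomboid-like protein gene, and the files do not say to which of them the binding belongs.

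The HYH peak held 116.6, 66.4 and 59.6 tags per 10 M in HY5-VP16 replicates 1 to 3, 29 in HY5-SRDX replicate 2, and 104.9, 79.9 and 83.7 in HY5ox replicates 1 to 3. Its percentile was 4.77%, 8.95% and 39.6% in HY5-VP16, 95.6% in HY5-SRDX replicate 2, and 16.5%, 46.0% and 44.8% in HY5ox. HYH thus ranked best in HY5-VP16 replicates 1 and 2 and was one of the weakest peaks called in HY5-SRDX replicate 2. The weakest peaks called in HY5-SRDX replicate 1, the library without HYH, had 18 tags per 10 M, so absence from that list does not mean that binding was absent. Percentiles of HYH overlapped between HY5-VP16 and HY5ox (log2 means 3.57 ± 1.57 and 5.02 ± 0.84, SD, n = 3 each, difference -1.44, exact permutation p = 0.2, adjusted 0.367). On the rank itself they did not overlap, with a difference of -1.88 (exact permutation p = 0.1, the smallest possible, adjusted 0.275).

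Auto-binding at HY5 was set beside binding at HYH within each library. The HY5 peak ranked above the HYH peak in 7 of 7 libraries, by -8.39 ± 1.52 on the log2 percentile scale (SD, n = 7), which is a percentile 335-fold smaller. The two-sided exact sign-flip permutation p was 0.0156, the smallest that 7 libraries allow, and 0.0469 after Benjamini-Hochberg adjustment over 6 tests of HY5 against the other genes. With 1 of these 7 libraries left out the adjusted permutation p was between 0.0625 and 0.0938, and the call was not kept. With 6 libraries the smallest possible p is 0.0312 before adjustment, so leaving out any library raises p whatever its values. The mean difference stayed between -8.70 and -8.08. The gap was -9.41 in HY5-VP16 (n = 3) and -7.07 in HY5ox (n = 3), a difference of -2.35 with overlapping ranges (exact permutation p = 0.2), and -9.28 in the single HY5-SRDX library with both peaks.

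**Figure D2:**
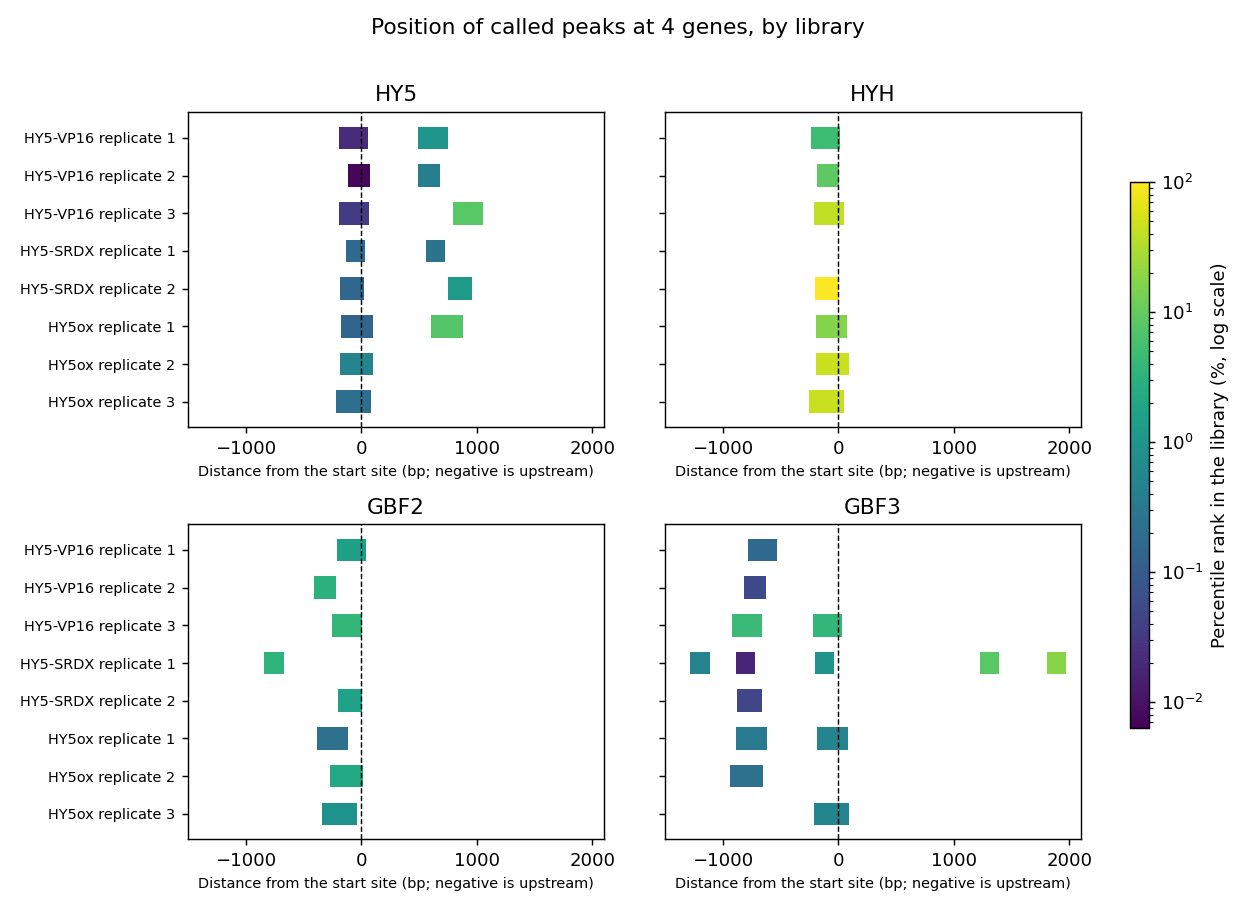
Position of every called peak at HY5, HYH, GBF2 and GBF3 relative to the start site (horizontal axis, bp, dashed line at the start site) in each library (rows), coloured by percentile rank on a log scale. HY5 and HYH peaks line up at the start site, with the further HY5 peaks inside the gene, while GBF3 has a recurrent region between -803 and -657 bp and another between -120 and -53 bp.

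GBF3 (AT2G46270, chromosome 2, plus strand, start site at 19000192), a G-box binding factor, was the relative with the strongest peaks. Its binding was split over a distal region at 18999257 to 18999661, with centres from -803 to -657 bp in 7 libraries, and a region at the start site at 18999970 to 19000283, with centres from -120 to -53 bp in 4 libraries. HY5-VP16 replicate 3 (113.9 and 116.4 tags per 10 M for the distal and the proximal region), HY5-SRDX replicate 1 (102.9 and 60.8) and HY5ox replicate 1 (249.4 and 232.7) had both. HY5ox replicate 3 had the proximal peak alone (336.4), and the other 4 libraries had the distal one alone (234.5 and 164.7 in HY5-VP16 replicates 1 and 2, 297.5 in HY5-SRDX replicate 2, 263.3 in HY5ox replicate 2). HY5-SRDX replicate 1 also listed a further promoter peak at -1197 bp and 2 peaks inside the gene. Because the strongest promoter peak switched between the regions, 16 of 28 pairs of libraries overlapped.

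The strongest GBF3 promoter peak stood at percentile 0.168%, 0.0523% and 3.74% in HY5-VP16 replicates 1 to 3, at 0.0171% and 0.0473% in HY5-SRDX replicates 1 and 2, and at 0.321%, 0.227% and 0.515% in HY5ox replicates 1 to 3. The HY5-SRDX values were the lowest, with no overlap with either other construct. On the log2 scale HY5-SRDX averaged -5.14 ± 1.04 (SD, n = 2) and HY5ox -1.58 ± 0.59 (n = 3), a difference of -3.56 (exact permutation p = 0.1, the smallest possible, adjusted 0.367), and -3.50 within set 1. Ranked by fold over control, this difference had the other sign, 2.74, and by fold over the local region it was -4.77. HY5-VP16 averaged -1.64 ± 3.18 (n = 3), and its difference from HY5ox was -0.06 (exact permutation p = 1). That value turned on single libraries: it was -1.84 without HY5-VP16 replicate 3, 1.24 without replicate 2, 0.40 without replicate 1 and 0.25 without HY5ox replicate 3. Within set 1 HY5-VP16 minus HY5ox was -1.78. In set 3 GBF3 ranked 110 of 2958 peaks in HY5-VP16 replicate 3 and 55 of 10675 in HY5ox replicate 3, so the percentile difference of 2.86 was 1.01 on the rank itself, the rest being list length.

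HY5 and GBF3 did not keep 1 order. HY5 ranked above GBF3 in 5 of 8 libraries, with a mean log2 difference of -1.13 ± 3.18 (SD, n = 8, exact sign-flip permutation p = 0.375, adjusted 0.45). In HY5-VP16 libraries the difference was -3, -2.81 and -6.79, in HY5-SRDX libraries 3.26 and 1.70, and in HY5ox libraries -1.15, 1.13 and -1.39. HY5 was thus the stronger of the pair in 3 of 3 HY5-VP16 libraries and GBF3 in 2 of 2 HY5-SRDX libraries. Taken by construct, a comparison chosen after the values were seen, the gap averaged -4.20 for HY5-VP16 and 2.48 for HY5-SRDX, a difference of -6.68 (exact permutation p = 0.1, the smallest possible with 3 libraries against 2).

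GBF2 (AT4G01120, chromosome 4, minus strand, start site at 484483) was bound close upstream of its start site in 7 libraries, in the region 484441 to 484890. In HY5-SRDX replicate 1 its only peak lay at -758 bp. The peaks were also assigned to AT4G01130. Peak centres in the proximal region ranged from -312 to -84 bp, and 19 of 28 pairs of libraries overlapped. The caller kept peaks of a library at least 332 to 600 bp apart, so neighbouring summits in this region could not be listed together.

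The strongest GBF2 promoter peak held 150.4, 82.6 and 116.7 tags per 10 M in HY5-VP16 replicates 1 to 3, 50.8 and 127.2 in HY5-SRDX replicates 1 and 2, and 268.1, 181.6 and 307.1 in HY5ox replicates 1 to 3. Its percentile was 1.57%, 3.01% and 3.80% in HY5-VP16, 3.25% and 1.67% in HY5-SRDX, and 0.221%, 2.14% and 0.852% in HY5ox. GBF2 averaged weaker in HY5-VP16 than in HY5ox, the other way from HY5, but the ranges overlapped (log2 means 1.39 ± 0.66 and -0.44 ± 1.65, SD, n = 3 each, difference 1.82, exact permutation p = 0.2, adjusted 0.367). Within set 1 the difference was 3.30. In set 3 GBF2 ranked 112 of 2958 peaks in HY5-VP16 replicate 3 and 91 of 10675 in HY5ox replicate 3, so the percentile difference of 2.16 fell to 0.31 on the rank itself and mostly follows list length.

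HY5 ranked above GBF2 in 8 of 8 libraries, by -4.29 ± 2.75 on the log2 percentile scale (SD, n = 8), a percentile 19.5-fold smaller. The exact sign-flip permutation p was 0.00781, the smallest possible, and 0.0469 after Benjamini-Hochberg adjustment. The adjusted p was up to 0.0938 when 1 library was left out, where fewer libraries raise the smallest possible p. The mean difference then stayed between -4.81 and -3.66. The gap of HY5 over GBF2 averaged -7.23 for HY5-VP16, -3.88 for HY5-SRDX and -1.61 for HY5ox, and libraries of different constructs did not overlap. HY5-VP16 minus HY5ox was -5.62, HY5-SRDX minus HY5ox was -2.27 and HY5-VP16 minus HY5-SRDX was -3.35, each with the smallest possible exact permutation p of 0.1. The HY5-SRDX minus HY5ox value had the other sign by fold over control (0.27) and by fold over the local region (0.64). These comparisons by construct were added after the values were seen.

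**Figure D3:**
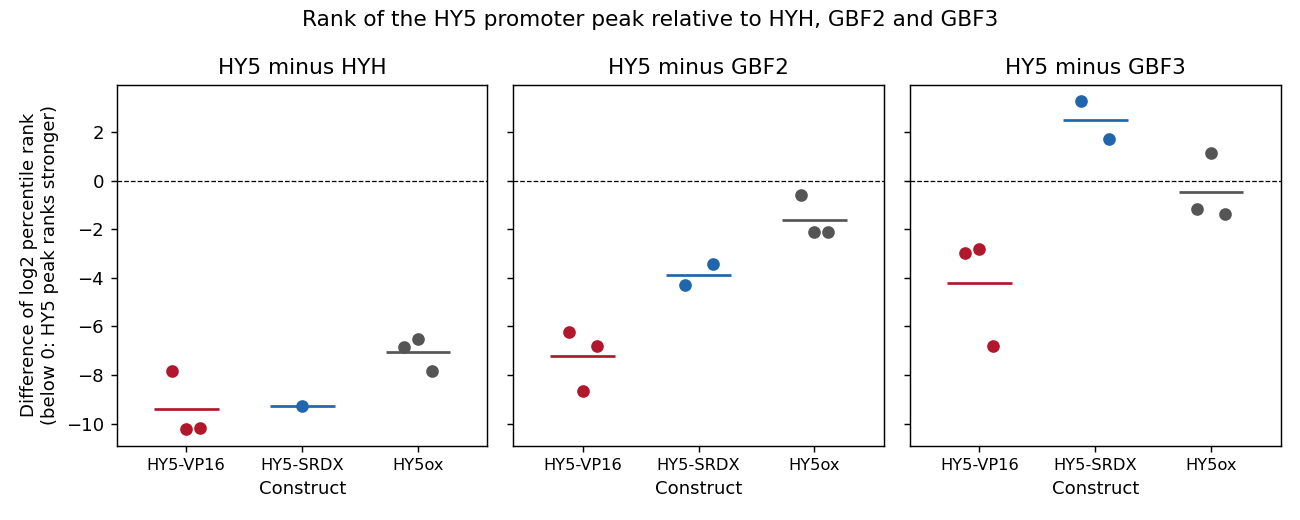
Difference of log2 percentile rank between the HY5 promoter peak and that of HYH, GBF2 and GBF3 (vertical axis, below 0 the HY5 peak ranks stronger) by construct; points are libraries and bars are means. The difference to HYH and GBF2 is below 0 in each library with both peaks, and the difference to GBF3 is below 0 in 3 of 3 HY5-VP16 libraries and above 0 in 2 of 2 HY5-SRDX libraries.

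GBF1 (AT4G36730, chromosome 4, minus strand, start site at 17312488), which takes part in light-regulated seedling growth, was bound more weakly. It had a region around the start site, 17312146 to 17312732, in 7 libraries and a region 17313300 to 17313632, with centres from -1061 to -920 bp, in 4. In HY5-VP16 replicate 1 the only peak, at 165 bp, was assigned to the gene body. The strongest promoter peak stood at percentile 24.6% in HY5-VP16 replicate 2, at 14.6% and 59.6% in HY5-SRDX replicates 1 and 2, and at 64.9%, 43.1% and 27.3% in HY5ox replicates 1 to 3. HY5-VP16 had a single value, and those of HY5-SRDX and HY5ox overlapped. The peaks at 14.6% and 64.9% lay in the upstream region. The peak near the start site stood at 72.4% in HY5-SRDX replicate 1 and, assigned to the gene body, at 29.4% in HY5ox replicate 1. HY5 ranked above GBF1 in 6 of 6 libraries with both promoter peaks, by -8.19 ± 2.00 (SD, n = 6, exact sign-flip permutation p = 0.0312, adjusted 0.0625).

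Over the control, the GBF1 peak near the start site had 13.9 and 11.1 times the tags in HY5-VP16 replicates 1 and 2, 5.83 and 15.7 times in HY5-SRDX replicates 1 and 2, and 12.2, 5.1 and 7.42 times in HY5ox replicates 1 to 3. The median fold of all peaks was 6.18 and 5.57 in these HY5-VP16 libraries, 4.77 and 5.96 in HY5-SRDX replicates 1 and 2, and 6.34, 4.35 and 4.93 in HY5ox replicates 1 to 3. These folds are the authors' values, and GBF1 was above the median of its library in 7 of 7.

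bZIP16 (AT2G35530, chromosome 2, minus strand) and bZIP68 (AT1G32150, chromosome 1, plus strand) encode a closely related pair of G-box binding proteins. bZIP16 had a peak at -275 bp in HY5-VP16 replicate 2 and at -237 bp in HY5ox replicate 1, at percentiles 66.6% and 44.4%. The bZIP68 promoter peak lay at 4 bp in HY5-VP16 replicate 2 and at 19 and -23 bp in HY5ox replicates 1 and 3, at percentiles 86.9%, 43.4% and 82.8%. HY5-SRDX replicate 1 listed bZIP68 through 3 peaks inside the gene, the strongest at percentile 46.5%. The promoter peaks of bZIP16 and bZIP68 were also assigned to AT2G35540 and AT1G32140. HY5 ranked above bZIP16 in 2 of 2 libraries and above bZIP68 in 3 of 3, where the smallest exact permutation p is 0.5 and 0.25.

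By score, HYH stood below GBF2 and GBF3. The HYH peak ranked weaker than the GBF2 peak in 7 of 7 libraries, by 4.11 ± 1.97 on the log2 percentile scale (SD, n = 7), and weaker than the GBF3 peak in 7 of 7, by 6.63 ± 2.42. Each exact sign-flip permutation p was 0.0156, the smallest possible, and 0.0391 after Benjamini-Hochberg adjustment over 5 tests. The adjusted p was up to 0.0781 when 1 library was left out, where fewer libraries raise the smallest possible p. Neither call held under the fold rankings: by fold over control the differences were 2.06 and 4.00 (adjusted p = 0.234 and 0.0781, exact permutation tests), and by fold over the local region 2.57 and 2.37 (adjusted p = 0.117 each). HYH and GBF1 were not separated (-0.39 ± 1.25, n = 5, exact sign-flip permutation p = 0.562), and HYH ranked above bZIP16 in 2 of 2 libraries and above bZIP68 in 3 of 3. Over the libraries with a promoter peak, the median percentile was 0.149% for HY5, 0.198% for GBF3 and 1.91% for GBF2 (n = 8 each). It was 35.2% for GBF1 (n = 6), 39.6% for HYH (n = 7), 55.5% for bZIP16 (n = 2) and 82.8% for bZIP68 (n = 3). Medians with n below 8 leave out libraries without the peak and cover different libraries, so they set no order among those genes. The tests did not separate HY5 from GBF3 or HYH from GBF1.

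The lead of HY5 depends on how strength is measured. Ranked by the authors' fold over control in place of the score, taking the promoter peak with the highest fold, HY5 stood at percentile 10.5%, 18.9% and 0.304% in HY5-VP16 replicates 1 to 3, at 40.5% and 23.8% in HY5-SRDX replicates 1 and 2, and at 17.2%, 7.27% and 1.82% in HY5ox replicates 1 to 3. On this scale GBF3 was the strongest of the 7 genes in 7 libraries, all but HY5-VP16 replicate 3. It stood at 1.53%, 7.48% and 3.08% in HY5-VP16, 11.1% and 5.89% in HY5-SRDX, and 3.37%, 1.51% and 0.351% in HY5ox. The mean log2 differences became -2.60 for HY5 minus HYH and -0.24 for HY5 minus GBF2 (adjusted p = 0.234 and 0.766, exact sign-flip permutation tests), and 1.46 for HY5 minus GBF3 (adjusted p = 0.234).

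The control itself was high at HY5. Its promoter peak held 18.2, 18.7 and 21.0 control tags per 10 M in HY5-VP16 replicates 1 to 3, 14.6 and 18.2 in HY5-SRDX replicates 1 and 2, and 21.8, 28.1 and 25.2 in HY5ox replicates 1 to 3. Between 94.1% and 99.4% of all peaks of a library had fewer control tags than this peak, against 24% to 75.2% for HYH, 21.0% to 93.7% for GBF2 and 7.18% to 70.1% for GBF3. The level in the hy5 control of set 2 was the highest of the 8 windows, which differ in width and control. The part of this control signal in the rank of HY5 was not tested. Over the control, HY5 held 17.8, 11.4 and 13.7 times the tags in HY5-VP16, 5.41 and 10.7 times in HY5-SRDX, and 13.1, 8.47 and 15.9 times in HY5ox.

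**Figure D4:**
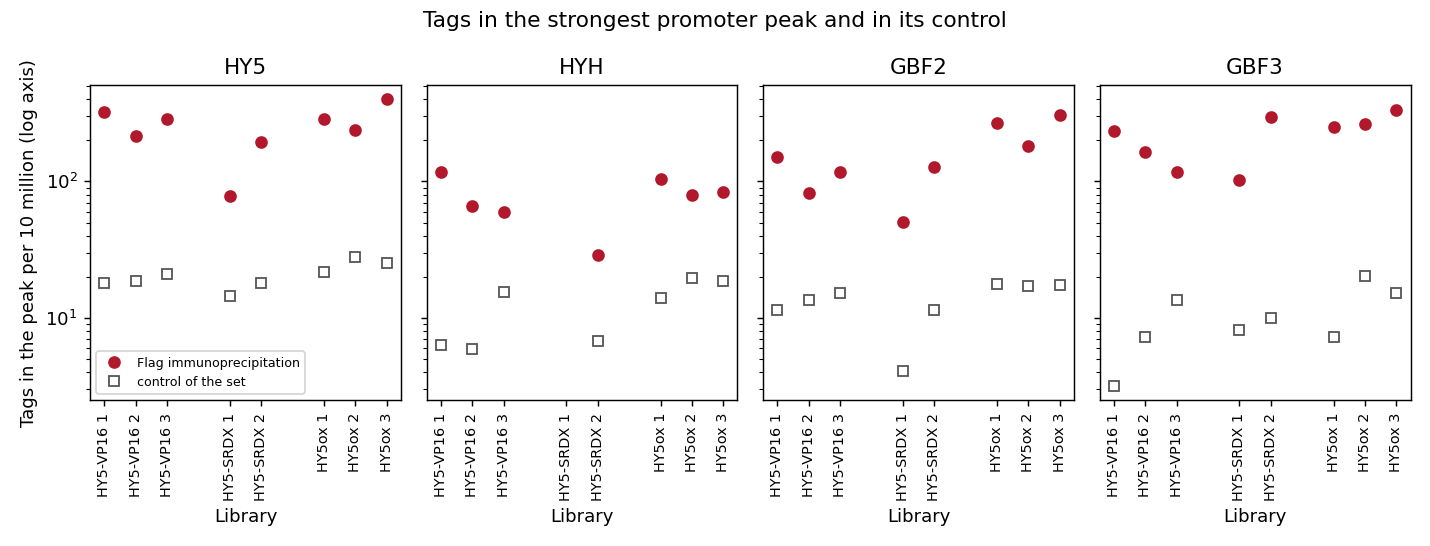
Tags per 10 M tags (vertical log axis) in the strongest promoter peak of HY5, HYH, GBF2 and GBF3 in each library (filled circles) and in the control of its set at the same window (open squares, the authors' tags over their fold). HY5 has 14.6 to 28.1 control tags in its windows, and GBF3 has 3.18 to 20.5.

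**Figure D5:**
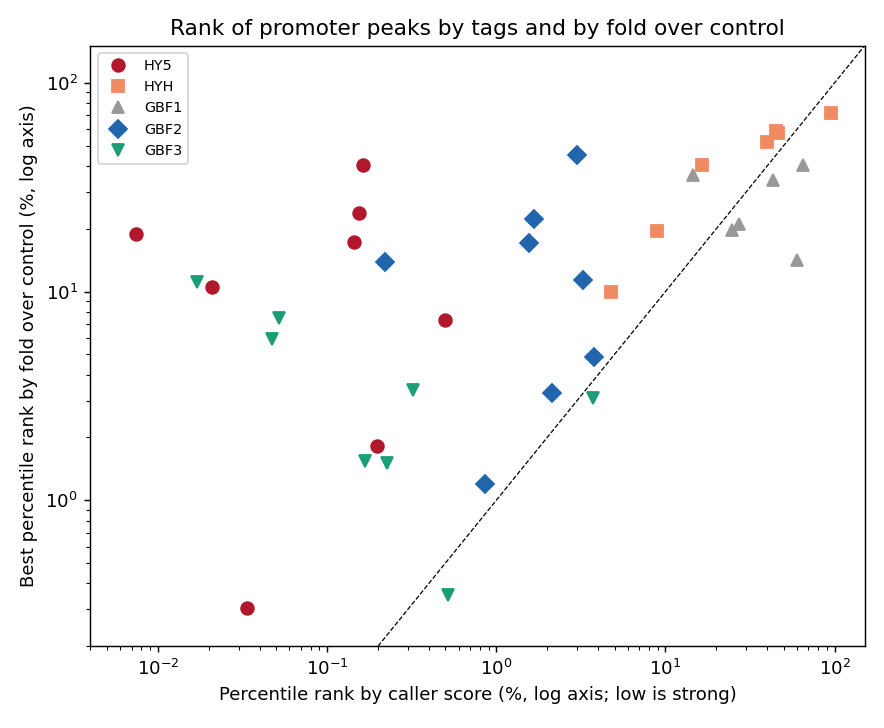
Percentile rank of promoter peaks by the caller's score (horizontal log axis) against the best percentile rank by fold over control (vertical log axis), 1 point per library and gene, with equal ranks on the dashed line. HY5 points lie at 0.497% or less by score and between 0.304% and 40.5% by fold.

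The authors' deposited table of peaks merged over all 8 libraries held HY5 alone of the 7 genes, although GBF2 and GBF3 were listed in each library. Their merged table of HY5-VP16 replicates 1 and 2 held HY5, HYH, GBF1 and GBF3, that of the HY5-SRDX replicates HY5, GBF1 and GBF3, and that of HY5ox replicates 1 and 2 held these with HYH and GBF2. GBF2 was in the single lists of HY5-VP16 replicates 1 and 2 and not in the merged one, and its peaks there, at 484441 to 484693 and at 484700 to 484890, do not touch.

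Genes with a pattern most like HY5 were sought by the mean absolute difference of log2 percentile over 8 libraries, among 1437 genes with a promoter peak in each. PP2CA, a phosphatase that restrains abscisic acid signalling, was nearest (1.67), followed by SIG5 (RefSeq symbol SIGE, AT5G24120), a plastid sigma factor, with its neighbour AT5G24130 (1.75 each), and CPC, an epidermal patterning regulator, with its neighbour AT2G46420 (1.78 each). GBF3 was the nearest of the 7 genes, in place 20 (2.65), and GBF2 came in place 90 (4.29). For HYH, over 7 libraries and 2076 genes, RBL14 was identical because it shares the peak, and PRF4, a profilin gene (0.56), AT4G35670 (0.59) and the pair AT1G24350 and AT1G24360 (0.60 each) followed.

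Of 26 genes from the bZIP groups that hold abscisic acid response factors, TGA factors and smaller bZIP proteins, 6 were listed in all 8 libraries and 3 in none, and single libraries listed between 7 and 19. Of all protein-coding genes, 6.58% were listed in all 8 libraries and 12.4% to 52.5% in single ones. Over the 23 listed anywhere, the geometric mean percentile of the strongest peak ran from 1.56% to 71.5%, with a median of 38.6%. These means cover only the libraries that list a gene. The 4 strongest of the 6 genes listed in all 8 libraries are named here. ABF2 and ABF3, which drive abscisic acid responsive genes, had 1.56% and 2.23%, and TGA1 and TGA4, factors of defence and nitrate responses, 10.3% and 11.9%. Of 14 genes that act on HY5 protein level or activity, 6 were listed in all 8 libraries (42.9%, against 6.58% of protein-coding genes). The 13 listed anywhere ran from 0.914% to 75.0%, with a median of 17%. At the strong end SPA1 and SPA3, partners of COP1, had 0.914% and 6.70%, and the B-box genes BBX28 and BBX29 had 1.69% and 7.97%.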

How the data were processed

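The submitters' processing notes name TAIR10 and the programs HOMER 4.9.1, Bowtie2 2.3.0 and CASAVA 1.8.2. Per the file headers, the authors called peaks in each library with HOMER findPeaks against the control of its set (fold over control 3, Poisson p 0.0001; fold over the surrounding 10 kb 2, Poisson p 0.001; false discovery rate 0.001). The deposited values are the caller's score, the tag count of a peak, its signal scaled to 10 M tags, and the fold, a ratio to control or local tags. In HY5-VP16 replicate 3 the tags are scaled to the control, in the others the control to the library. The authors assigned peaks to promoters, reaching 2000 bp upstream, or gene bodies.

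From these, percentile ranks were computed by score (ties took the mean), for the strongest promoter peak of a gene. Log2 percentiles were compared between genes within libraries by two-sided exact sign-flip permutation tests and between constructs by two-sided exact permutation tests, with Benjamini-Hochberg adjustment and a threshold of 0.05. Functions were tested on simulated data. Symbols and the 27444 protein-coding genes come from RefSeq (TAIR10.1), whose coordinates were not used. The genes named are the 7 members, the 5 nearest in pattern to HY5 and to HYH, and 4 examples each of 2 comparison lists. Members and lists were chosen with earlier results of these data known. No 2 libraries were identical. Promoter sequences and motifs were not analysed here. Depth limits weak peaks, and ranks cover no counting error. Python 3.11.15, numpy 2.4.6 and pandas 2.3.3 were used.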

Additional observations from a re-analysis of the deposited data

Results flagged for a closer look

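The order of HY5 and GBF3 ran in opposite directions in HY5-VP16 and HY5-SRDX. The HY5 promoter peak ranked above that of GBF3 in 3 of 3 HY5-VP16 libraries and below it in 2 of 2 HY5-SRDX libraries, and the mean log2 difference was -6.68 for HY5-VP16 minus HY5-SRDX. The exact permutation p of 0.1 is the smallest that 3 libraries against 2 allow, so this design could not pass the threshold. Ranked by fold over control in place of the score, the difference was -1.68, and HY5 ranked above GBF3 in HY5-VP16 replicate 3 alone. By fold over the local region the difference was -7.71.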

How the results depend on the processing

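Values are log2 percentile differences, and adjusted p-values are from exact permutation tests. Ranked by fold over control, HY5 minus HYH was -2.60 (adjusted permutation p = 0.234), HY5 minus GBF2 -0.24 and HY5 minus GBF3 1.46, while HYH minus GBF1, GBF2, GBF3 and bZIP68 was 0.91, 2.06, 4.00 and 0.22, and none of the 4 calls by score was kept. On that scale HY5-SRDX minus HY5ox was 2.35 for HY5 and 2.74 for GBF3, HY5-VP16 minus HY5ox was 1.44 for GBF3, and HY5-VP16 minus HY5-SRDX was -0.035 for GBF2 and -1.30 for GBF3. The gaps by construct became 0.61 (HYH, HY5-VP16 minus HY5ox), 1.49 (HYH, HY5-SRDX minus HY5ox), 0.27 (GBF2, HY5-SRDX minus HY5ox) and -0.39 (GBF3, HY5-SRDX minus HY5ox). Ranked by fold over the local region, the calls for HY5 minus HYH (-6.00) and HY5 minus GBF2 (-3.01) were kept. HYH minus GBF2 and GBF3 was 2.57 and 2.37 by that measure, both calls lost, HY5-SRDX minus HY5ox was 0.83 for HY5, and the gaps were 0.38 (HYH, HY5-VP16 minus HY5-SRDX) and 0.64 (GBF2, HY5-SRDX minus HY5ox). The cause of these changes was not tested. On the rank itself, not divided by the number of peaks (added after the data were seen), HY5-SRDX minus HY5ox was 0.11 for HY5 and 0.19 for GBF1, and HY5-VP16 minus HY5-SRDX was -0.99 for GBF2. Ranking by tags per 10 M changed no call. With peaks in any position, HY5 minus GBF1 was -8.32 (adjusted permutation p = 0.0312). With peaks of at least 5-fold alone, HY5 minus HYH was -8.20 and HYH minus GBF2 and GBF3 was 3.07 and 5.88, all 3 calls lost with fewer libraries, and GBF3 in HY5-VP16 minus HY5ox was 0.085. With percentile 100 for a missing peak, HY5 minus GBF1, bZIP16 and bZIP68 was -9.11, -10.05 and -10.06, and HYH minus bZIP16 and bZIP68 was -1.55 and -1.56. In set 1 alone, where fewer libraries raise the smallest possible p, HY5 minus HYH and GBF2 was -8.54 and -4.65, HYH minus GBF2 and GBF3 was 3.81 and 7.23, HY5-SRDX minus HY5ox was 0.13 for HY5, and the HYH gap of HY5-VP16 minus HY5-SRDX was 0.25. There and with replicate numbers as a block, HY5-VP16 minus HY5-SRDX was -0.10 for GBF2. Libraries of different constructs were compared over 1438 genes as deviations from the mean of their construct. Against HY5ox replicate 1, HY5-SRDX replicates 1 and 2 thus gave correlations of 0.0287 and -0.0287. Such values do not measure how alike the ranks themselves were, and negative ones follow in part from the subtraction. Same-numbered libraries correlated at -2.7e-05 to 0.467, and those with unlike numbers at -0.411 to 0.158. The highest values were for HY5-VP16 and HY5ox replicates 3 (0.467) and replicates 1 (0.263), which also share a set. Whether the numbers pair libraries is thus not settled, and the block changed no other direction. At 50% overlap, 4 pairs shared the GBF1 position. With 1 library left out, HY5 minus HYH ranged from -8.70 to -8.08 and HY5 minus GBF2 from -4.81 to -3.66, HYH minus GBF1, GBF2 and GBF3 ranged from -0.67 to 0.0068, from 3.76 to 4.53 and from 5.91 to 7.17, and signs turned for GBF1 in HY5-SRDX minus HY5ox (-1.54 to 0.49), GBF2 in HY5-VP16 minus HY5-SRDX (-0.31 to 0.65), GBF3 in HY5-VP16 minus HY5ox (-1.84 to 1.24) and the HYH gap of HY5-VP16 minus HY5-SRDX (-0.93 to 0.27). The number of genes listed in every library ranged from 3 to 4. Peaks below the weakest called in a library were not detectable.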
